A study of Mus musculus with 6 samples.

Results

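Granule cells are the principal neurons of the dentate gyrus, and 10 genes that mark them were followed in the hippocampus of mice given substance P (SP). The genes are *Prox1*, *C1ql2*, *C1ql3*, *Dsp*, *Tdo2*, *Lct*, *Plk5*, *Rfx3*, *Calb1* and *Trpc6*. They were chosen by gene name, as known markers of this cell type, from the 55421 genes of the table, and each name matched 1 gene. RNA was sequenced from 3 male mice that received SP (10 µM, 100 µL) under the skin for 14 days and from 3 male mice that received the same volume of saline (vehicle). All 6 were wild-type C57BL/6N mice, and the mice of the study were 8 to 10 weeks old. Each mouse gave 1 library of whole hippocampus, so granule cells were measured together with all other cells of the tissue, and fewer granule cells cannot be told apart from less RNA per granule cell.

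Granule cells receive the input of the entorhinal cortex and send their axons, the mossy fibers, to CA3. They are among the few neurons that are still produced in the adult rodent brain. *Prox1* encodes a homeobox transcription factor that new neurons need to become and to remain granule cells. *C1ql2* and *C1ql3* encode secreted C1q-like proteins that organize mossy fiber synapses, where they help to recruit kainate receptors. *Calb1* encodes calbindin, a calcium buffer of mature granule cells that CA1 neurons and some interneurons also contain. *Dsp* encodes desmoplakin, which ties intermediate filaments to desmosomes. *Tdo2* encodes an enzyme that opens the kynurenine pathway from tryptophan, and *Lct* encodes lactase. *Plk5* encodes a member of the polo-like kinase family found in brain. *Rfx3* encodes a transcription factor of cilia genes, and *Trpc6* encodes a cation channel.

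The promoters of 4 members are shown, because *Prox1*, *Lct* and *Dsp* varied together most widely between libraries and *Rfx3* encodes a factor whose own recognition letters could be searched. Each sequence holds 300 bases, from 250 before to 50 after the gene start, read 5′ to 3′ on the gene's strand from RefSeq on GRCm38.p6. Capitals mark GTTGCC, an RFX half-site, and CAGATG, an E-box of the NEUROD type, each searched on both strands. No printed promoter held both. For *Prox1* the upstream start of 2 was taken.
Prox1, chr1:190170778-190171077, minus strand: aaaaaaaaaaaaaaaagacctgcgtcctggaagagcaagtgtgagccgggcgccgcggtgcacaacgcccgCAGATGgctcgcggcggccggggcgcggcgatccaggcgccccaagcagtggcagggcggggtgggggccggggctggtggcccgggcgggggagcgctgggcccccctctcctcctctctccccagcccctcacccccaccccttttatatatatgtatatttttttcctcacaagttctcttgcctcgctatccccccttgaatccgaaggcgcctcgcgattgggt
Lct, chr1:128328269-128328568, minus strand: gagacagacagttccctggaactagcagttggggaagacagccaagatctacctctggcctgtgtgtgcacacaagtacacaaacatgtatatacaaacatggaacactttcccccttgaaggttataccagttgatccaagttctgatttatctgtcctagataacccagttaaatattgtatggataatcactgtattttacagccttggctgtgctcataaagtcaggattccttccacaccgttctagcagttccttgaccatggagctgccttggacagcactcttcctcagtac
Dsp, chr13:38151044-38151343, plus strand: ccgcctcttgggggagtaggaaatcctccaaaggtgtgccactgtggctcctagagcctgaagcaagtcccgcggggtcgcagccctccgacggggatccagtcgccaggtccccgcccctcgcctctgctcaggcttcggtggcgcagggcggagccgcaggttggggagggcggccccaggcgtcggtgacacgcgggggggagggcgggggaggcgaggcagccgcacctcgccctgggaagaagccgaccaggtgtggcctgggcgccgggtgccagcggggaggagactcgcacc
Rfx3, chr19:28011117-28011416, minus strand: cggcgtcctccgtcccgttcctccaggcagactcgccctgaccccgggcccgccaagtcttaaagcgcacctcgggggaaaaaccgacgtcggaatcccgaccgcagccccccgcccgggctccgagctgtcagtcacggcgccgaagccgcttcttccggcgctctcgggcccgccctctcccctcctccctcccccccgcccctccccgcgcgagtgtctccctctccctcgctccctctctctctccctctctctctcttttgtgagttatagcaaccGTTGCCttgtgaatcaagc
CAGATG occurred 1 time in the printed *Prox1* promoter and GTTGCC occurred 1 time in that of *Rfx3*. The other 8 entries found for the members, which include the downstream *Prox1* start, held neither. Of all 32851 promoters of this length, 12.5% held GTTGCC and 17.2% held CAGATG. *Calb1* had no entry. These matches describe the letters in the window and do not show that a factor binds there.

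The members were measured well above the limit of detection. The libraries held 22349964 to 27605935 estimated counts, and a count of 0 would allow 0.109 to 0.135 CPM (a gene's count scaled to a common, normalized library size), a limit of 3 counts that covers counting error only. All 10 members passed the filter on low counts, with 135 counts for *Tdo2* in SP 3 as the lowest value and 3447 for *Calb1* in vehicle 3 as the highest. Markers of CA1 and CA3 pyramidal cells, interneurons, astrocytes, oligodendrocytes and microglia were also present in every library, as a whole hippocampus would hold. SP 1 stood apart in other tissue. Its 6 choroid plexus markers summed to 170 CPM, against 2776 to 4705 CPM in the other libraries, and its 5 cerebellar neuron markers to 39.0 CPM, against 6.99 to 9.29 CPM.

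To compare levels between genes, CPM was divided by the length of the merged exons in kilobases. In vehicle libraries *C1ql2* and *C1ql3* were the most abundant members, at 31.5 ± 2.21 and 31.1 ± 1.19 CPM per kilobase (SD, n = 3), and their ranges overlapped. *Calb1* followed with 25.5 ± 0.299 CPM per kilobase (SD, n = 3). *Prox1* and *Rfx3* formed the next step, at 10.3 ± 0.582 and 9.66 ± 0.354 CPM per kilobase (SD, n = 3), again with ranges that met. Below them came *Plk5* at 7.52, *Lct* at 5.97, *Dsp* at 4.14, *Trpc6* at 3.60 and *Tdo2* at 1.55 CPM per kilobase, and in vehicle libraries no range in this series of steps overlapped with the next. The synaptic organizers and the calcium buffer thus stood above the transcription factors per base of exon, and the remaining members below.

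**Figure D1:**
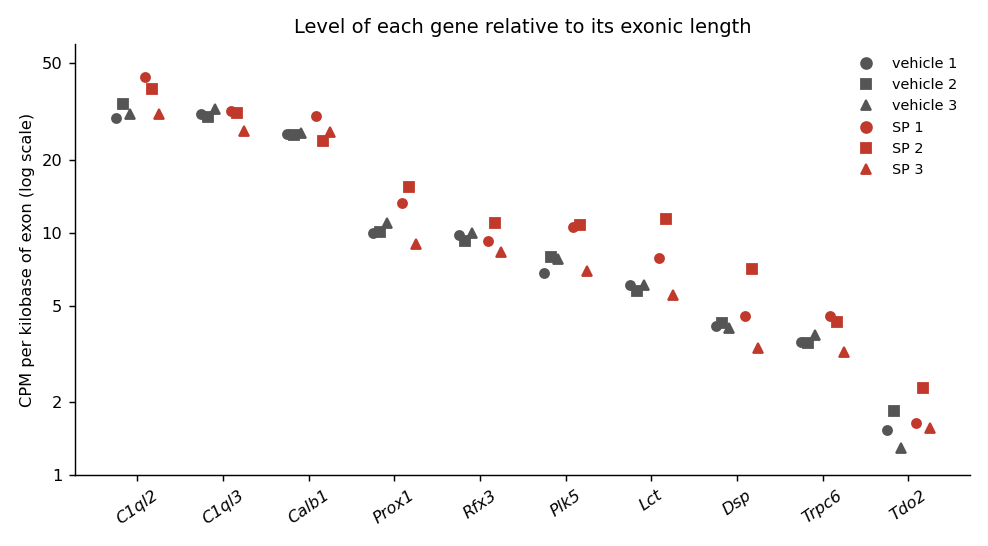
Level of each member in CPM per kilobase of merged exon (log scale) in the 3 vehicle and 3 SP libraries, with 1 marker shape for each replicate number. The vehicle libraries lie close together for most genes but run from 1.29 to 1.83 for *Tdo2*, while SP 2 is at 11.4 for *Lct* and 7.10 for *Dsp*, against vehicle means of 5.97 and 4.14.

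No member passed FDR < 0.1 and |log2FC| > 0.3 between SP and vehicle, and in every member the 2 groups overlapped. The test was edgeR's quasi-likelihood test with the replicate number as a block, in which 5 of 17069 tested genes passed (0.0293%), 0.0176% as higher and 0.0117% as lower in SP. The groups did not overlap in 18.2% of all tested genes, 9.19% with SP higher and 9.03% with SP lower. DESeq2 and limma-voom also called 0 members. At an unadjusted p under 0.05 the count was 1 of 10 members, *C1ql2*, where 10.1% of all tested genes reached that level, 4.48% with SP higher and 5.59% with SP lower. Without the replicate block it was 2 of 10, *C1ql2* and *Lct*, where 11.9% of all tested genes reached it. For 3 mice against 3 without regard to replicate number, 0.1 is the smallest two-sided p that exact permutation allows for any 1 gene. Permutation only within replicate pairs, as the block would ask, cannot reach a p as small. The log2 fold change was above 0 in 8 of 10 members, as it was in 50.5% of all tested genes. Its median was 0.219 for the members and 0.001 for all tested genes. Medians of the marker lists ran from -1.256 for choroid plexus to 1.705 for cerebellar neurons. They were 0.316 for oligodendrocytes, 0.224 for CA3, 0.011 for CA1 and -0.082 for interneurons, so a median of this size was not particular to the members.

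Leaving out a replicate number moved these counts. Without replicate 3, *Prox1*, *Lct*, *Trpc6*, *Plk5*, *C1ql2* and *Dsp* were higher in SP at an unadjusted p under 0.05, 6 of 10 members where 4.57% of all tested genes were. Without replicate 2 only *C1ql2* was higher at that level (5.34% of all tested genes) and *Rfx3* was lower, and without replicate 1 there were 0 members (2.39% higher). By FDR and fold change, edgeR called 0 members in each of these fits, beside 0.0534%, 0.0776% and 0.215% of all tested genes without replicates 1, 2 and 3.

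The identity factor *Prox1* (ENSMUSG00000010175, chromosome 1 of GRCm38 from 190118035 to 190170714, minus strand) had 83.5, 84.5 and 92.4 CPM in vehicle 1, 2 and 3. It had 112, 129 and 75.5 CPM in SP 1, 2 and 3. SP 1 and SP 2 were above every vehicle library and SP 3 was below each of them. Its log2 fold change of 0.25 had a 95% interval from -0.11 to 0.60 (standard error 0.152, FDR 0.619). Without replicate 3, the pair in which SP was lower, it was 0.51 with an FDR of 0.1001 from edgeR's quasi-likelihood test. By the same test it was 0.16 without replicate 1 (FDR 0.954) and 0.07 without replicate 2 (FDR 0.897). *Prox1os*, an antisense gene, overlaps 133 bases of its exons.

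*Lct* (ENSMUSG00000026354, chromosome 1 from 128284756 to 128328318, minus strand) had the largest log2 fold change of the members. Its vehicle libraries had 39.0, 36.9 and 38.9 CPM and its SP libraries 50.4, 72.8 and 35.4 CPM. SP 2 was 1.90-fold above the vehicle mean, while SP 3 was 0.92 of it. The log2 fold change of 0.41 had a standard error of 0.178, a 95% interval from -0.01 to 0.83 and an FDR of 0.499. It was 0.12 without replicate 2 and 0.67 without replicate 3.

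*Dsp* (ENSMUSG00000054889, chromosome 13 from 38151294 to 38198577, plus strand) shared with *Lct* the order of the SP libraries, with SP 2 highest and SP 3 lowest. It had 39.7, 41.0 and 39.1 CPM in vehicle 1, 2 and 3, and 43.7, 68.6 and 32.3 CPM in SP 1, 2 and 3. The vehicle libraries differed by at most 1.05-fold, but SP 2 was 2.12-fold above SP 3. The log2 fold change of 0.21 (standard error 0.165, 95% interval -0.18 to 0.60, FDR 0.703) was -0.07 without replicate 2 and 0.44 without replicate 3. An opposite-strand gene model overlaps 499 bases of its exons.

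The C1q-like genes differed from each other in these libraries. *C1ql2* (ENSMUSG00000036907, chromosome 1 from 120340582 to 120343174, plus strand) had 59.4, 68.0 and 61.8 CPM in vehicle 1, 2 and 3 and 87.7, 78.6 and 61.6 CPM in SP 1, 2 and 3. SP 3 lay inside the vehicle range and the other SP libraries above it. Its log2 fold change was 0.26 (standard error 0.101, 95% interval 0.02 to 0.49, FDR 0.460), with 0.10 without replicate 1. *C1ql3* (ENSMUSG00000049630, chromosome 2 from 13003457 to 13011806, minus strand) had 78.0, 76.4 and 82.3 CPM in vehicle libraries and 80.7, 78.7 and 66.6 CPM in SP libraries. SP 1 and SP 2 were inside the vehicle range and SP 3 was below it. Its log2 fold change of -0.07 had a 95% interval from -0.26 to 0.12 (standard error 0.0796, FDR 0.815). A difference between the 2 genes in their response was not tested. Antisense gene models overlap 1627 bases of the *C1ql3* exons.

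*Plk5* (ENSMUSG00000035486, chromosome 10 from 80356459 to 80365489, plus strand) had 18.3, 21.2 and 20.9 CPM in vehicle 1, 2 and 3 and 28.2, 28.7 and 18.6 CPM in SP 1, 2 and 3. The log2 difference of 0.30 (standard error 0.142, 95% interval -0.03 to 0.63, FDR 0.526) was 0.14 without replicate 1 and 0.53 without replicate 3. The channel gene *Trpc6* (ENSMUSG00000031997, chromosome 9 from 8544142 to 8680741, plus strand) had 17.9, 17.7 and 19.2 CPM in vehicle libraries and 23.1, 21.7 and 16.3 CPM in SP libraries. Its log2 fold change was 0.14 (standard error 0.121, 95% interval -0.14 to 0.43, FDR 0.727), with 0.03 without replicate 1, 0.07 without replicate 2 and 0.33 without replicate 3. In both genes SP 1 and SP 2 were above all vehicle libraries and SP 3 was not. Of the 31-base words in *Trpc6* transcripts, 5.19% also occur in other genes, the highest share among the members.

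The calcium buffer *Calb1* (ENSMUSG00000028222, chromosome 4 from 15881264 to 15908064, plus strand) did not follow this order. It had 124, 122 and 125 CPM in vehicle 1, 2 and 3 and 146, 116 and 125 CPM in SP 1, 2 and 3. SP 1 was highest and SP 2 lowest, so that *Calb1* was lowest in the library where *Prox1*, *Lct* and *Dsp* were highest. SP 1 was also the library with the highest sum of cerebellar neuron markers, 39 CPM. The part of that tissue in the *Calb1* value of SP 1 was not tested. The fold change of 0.06 on the log2 scale had the narrowest interval of the members, from -0.11 to 0.22 (standard error 0.0701, FDR 0.830).

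*Rfx3* (ENSMUSG00000040929, chromosome 19 from 27761721 to 28011166, minus strand) had 108, 102 and 110 CPM in vehicle libraries and 101, 122 and 92.0 CPM in SP libraries, and SP libraries lay on either side of the vehicle range. Its log2 fold change was -0.03 (standard error 0.0917, 95% interval -0.24 to 0.19, FDR 0.940), -0.17 without replicate 2 and 0.08 without replicate 3. *Tdo2* (ENSMUSG00000028011, chromosome 3 from 81957090 to 81976202, minus strand) had 5.97, 7.11 and 5.01 CPM in vehicle libraries and 6.35, 8.84 and 6.06 CPM in SP libraries. It was higher in SP in 3 of 3 replicate pairs, a count for which no share of all genes was taken, and its groups overlapped. Its log2 fold change was 0.23 (standard error 0.115, 95% interval -0.04 to 0.50, FDR 0.551). Its vehicle libraries had a coefficient of variation of 17.5%, where counting error alone gives 8.61% at its lowest count.

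**Figure D2:**
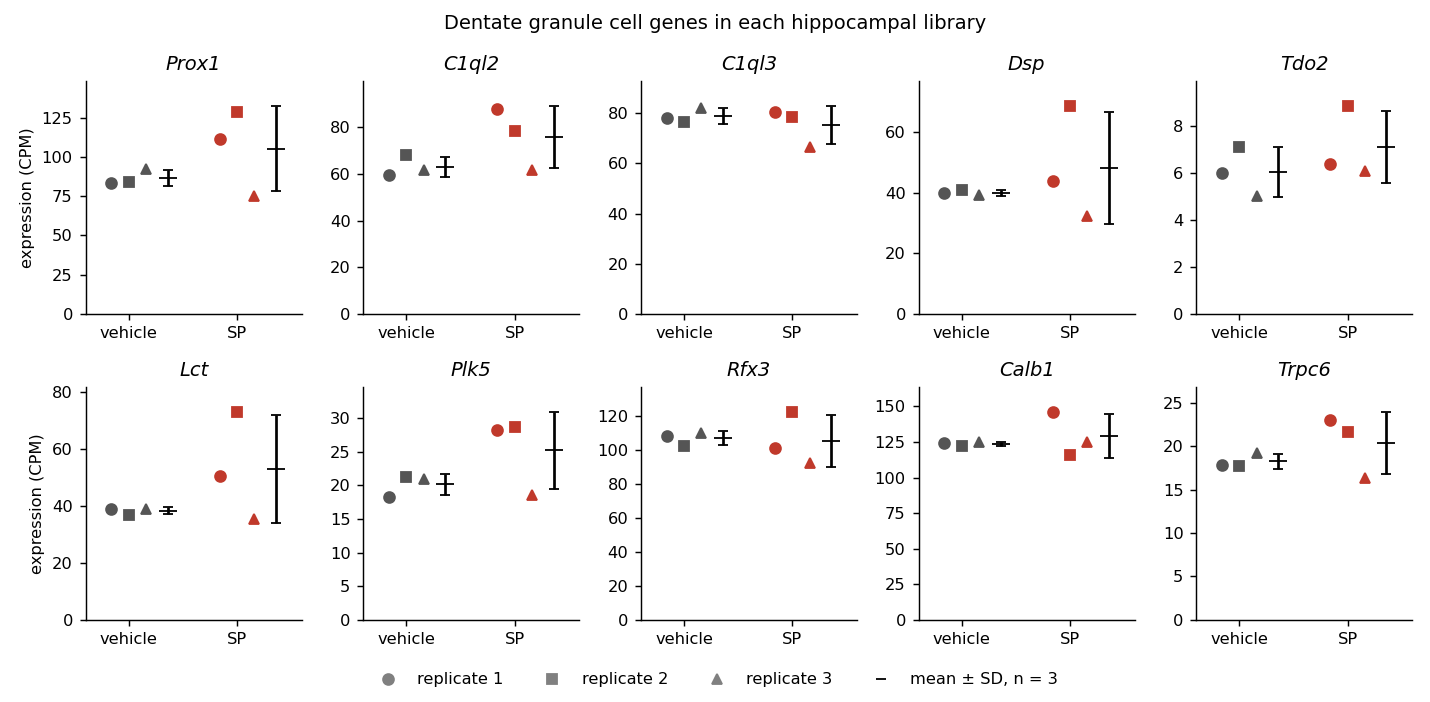
Expression of each member in CPM in every library, with marker shapes for replicate numbers and bars for the mean ± SD (n = 3). The vehicle points lie close together except in *Tdo2*, and in *Prox1*, *Lct*, *Dsp* and *Trpc6* SP 1 and SP 2 are above them and SP 3 below.

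**Figure D3:**
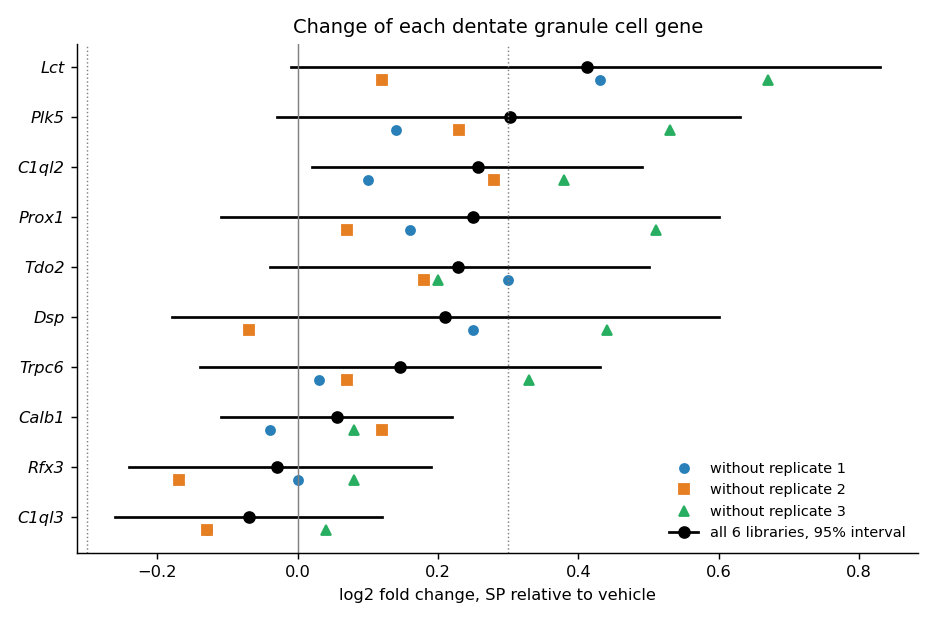
Log2 fold change of SP relative to vehicle with its 95% interval from edgeR (black), and the estimates without each replicate number (colored). Dotted lines mark 0.3 in either direction. Only the interval of *C1ql2*, 0.02 to 0.49, lies above 0, and the estimates without replicate 3 are the highest for 8 of 10 members.

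The members varied more between SP mice than between vehicle mice. The SD of log2 CPM was larger over the SP libraries than over the vehicle libraries in 10 of 10 members, as in 63.0% of all tested genes. The median SD was 0.0583 over vehicle and 0.268 over SP for the members, and 0.0795 and 0.106 for all tested genes. For the 11989 tested genes with a mean of at least 5 CPM it was 0.0617 and 0.0836, with a median SP to vehicle ratio of 1.4. The ratio of the 2 SDs ranged from 1.19 for *Tdo2* to 15.9 for *Dsp*, with 11.8 for *Lct* and 10.2 for *Calb1*, and its median was 3.99 for the members and 1.33 for all tested genes. Some other lists also had a wider spread over SP, with medians of 2.76 for the other granule cell genes, 2.63 for immature granule neurons, 2.56 for interneurons, 2.47 for oligodendrocytes, 4.14 for cerebellar neurons and 9.11 for choroid plexus. Not all did, with 1.02 for mossy cells, 0.897 for CA2 pyramidal cells, 0.904 for brain endothelium and 0.863 for thalamic neurons. With 3 mice in each group such a ratio is imprecise for a single gene, and it was not tested.

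Library by library, SP 1 was above all vehicle libraries in 7 of 10 members, where it was above them in 30.6% of all tested genes. SP 2 was above them in 8 of 10 members, against 33.3% of all genes, and below them in 1, against 31.7%. It was the highest of the 6 libraries in 6 of 10 members, against 24.4% of all genes. SP 3 was below all vehicle libraries in 6 of 10 members, against 27.6% of all genes, and above them in 1, *Calb1*, against 28.0%. SP 1 and SP 2 were both above in 6 of 10 members, against 16.4% of all genes. In *Prox1*, *Dsp*, *Lct* and *Trpc6* SP 1 and SP 2 were above and SP 3 below every vehicle library, an arrangement found in 2.07% of all tested genes. All members were read in the same 6 libraries, so they do not count as independent cases. These counts are descriptions, and no enrichment was tested. Within replicate pairs, SP was higher in 9 of 10 members in pair 1, with a median log2 ratio of 0.31. It was higher in 9 of 10 in pair 2, with a median of 0.30, and in 2 of 10 in pair 3, with a median of -0.20. The pairs therefore differed in direction.

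The summed level of the 10 members was 573, 577 and 594 CPM in vehicle 1, 2 and 3 and 679, 724 and 530 CPM in SP 1, 2 and 3. Relative to the sum of 8 CA1 markers it was 0.752, 0.837 and 0.806 in vehicle libraries and 0.938, 1.043 and 0.688 in SP libraries. SP 1 and SP 2 were thus above and SP 3 below the vehicle libraries on this scale too. Relative to 6 CA3 markers the ratio was 5.93, 5.61 and 6.03 in vehicle libraries and 6.27, 5.86 and 5.17 in SP libraries, so that SP 2 fell inside the vehicle range. Markers of oligodendrocytes were highest in SP 2, where 7 of them summed to 3349 CPM against 2011 to 2507 CPM in the other libraries. All 7 had a log2 fold change above 0, and in 5 the groups did not overlap. Markers of interneurons were lowest in SP 2, where 7 of them summed to 522 CPM against 652 to 730 CPM elsewhere, and 6 of 7 had a log2 fold change below 0. The part of these other cell types and of the choroid plexus and cerebellar differences in the levels of the members was not tested.

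A list of 10 other granule cell genes showed the same order of the SP libraries. Its median log2 deviation from the vehicle mean was 0.11, 0.28 and -0.21 in SP 1, 2 and 3, and those of the members were 0.29, 0.42 and -0.14. Of this list 0 of 10 genes passed the thresholds, 6 had a log2 fold change above 0, and the median was 0.062. This median was -0.023 without replicate 1, -0.053 without replicate 2 and 0.248 without replicate 3. *Dock10*, an activator of small GTPases, had 81.8, 91.1 and 92.3 CPM in vehicle libraries and 101, 126 and 80.9 CPM in SP libraries. *Stra6*, the receptor for retinol-binding protein, had a lower mean in SP with overlapping groups. It had 15.5, 13.7 and 14.3 CPM in vehicle libraries and 8.61, 14.1 and 12.3 CPM in SP libraries (log2 fold change -0.33, standard error 0.159, FDR 0.534). The estimate rested mainly on SP 1, with -0.09 without replicate 1, -0.52 without replicate 2 and -0.40 without replicate 3. SP 1 was also the library low in choroid plexus markers, and the part of that tissue in the *Stra6* value was not tested.

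In the lists of other hippocampal neurons named next, the median deviation of SP 3 was not below the vehicle range. It was below that range in 4 marker lists of other cells or regions, with -0.11 for subiculum, -0.07 for astrocytes, -0.08 for microglia and -0.13 for neocortical layers, so a low SP 3 was not particular to the members. For 7 markers of immature granule neurons the median deviations were 0.11, -0.24 and -0.04 in SP 1, 2 and 3, and the median log2 fold change was -0.049. Single genes ran from -0.43 for *Dcx*, a microtubule protein of migrating neurons whose groups did not overlap (standard error 0.107, FDR 0.347), to 0.55 for *Eomes*, a factor of intermediate progenitors (standard error 0.213, FDR 0.458). Without replicate 2 the median was 0.032. For 7 markers of mossy cells, the other excitatory neurons of the dentate gyrus, they were 0.13, 0.11 and 0.10, with vehicle libraries from -0.13 to 0.16. For 8 CA1 markers they were 0.01, 0.02 and 0.10, although the log2 fold changes of single CA1 genes ran from -0.47 to 0.52. For 6 CA3 markers they were 0.22, 0.31 and 0.05. None of the genes in these lists passed the thresholds in the blocked edgeR fit, and whether the lists differ from the members was not tested.

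**Figure D4:**
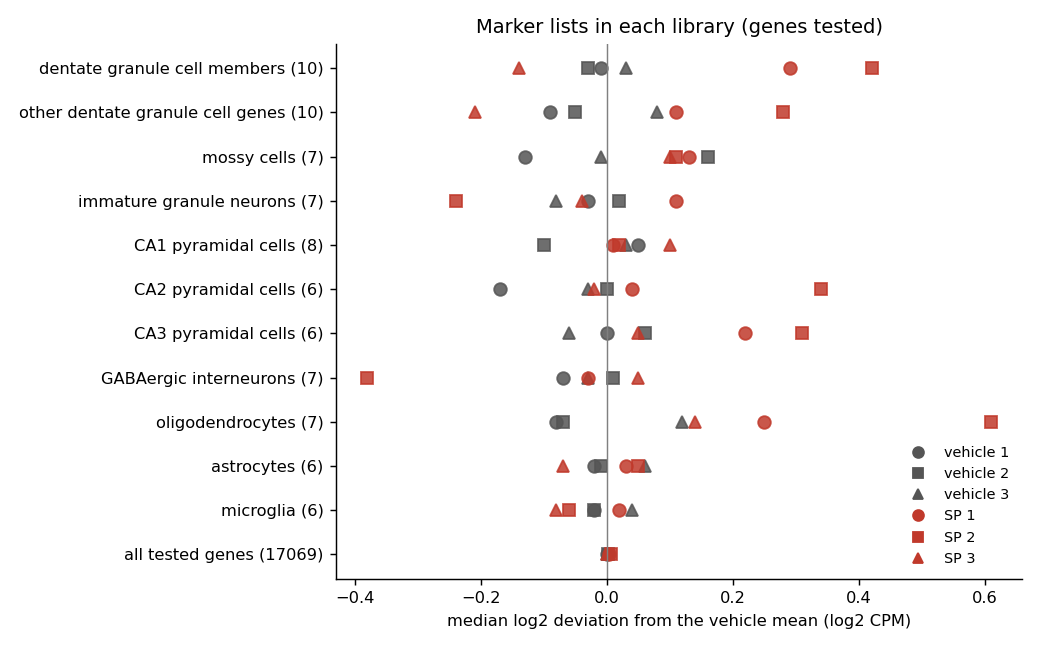
Median log2 deviation from the mean of the vehicle libraries for the members and for marker lists in each library, with the number of genes tested in brackets. For the members SP 1 and SP 2 lie at 0.29 and 0.42 and SP 3 at -0.14, while the CA1 list stays between -0.10 and 0.10 in all libraries.

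Genes that work with the members were followed as 8 lists of partners and relatives, in which 0 genes passed the thresholds. Among the partners of the C1q-like proteins, log2 fold changes were 0.01 for the receptor gene *Adgrb3* (standard error 0.0492) and 0.02 for *Nrxn3* (standard error 0.0516). The kainate receptor gene *Grik4* had 54.1, 59.0 and 54.5 CPM in vehicle libraries and 61.5, 71.5 and 62.4 CPM in SP libraries. These groups did not overlap, with a log2 difference of 0.22 between them (standard error 0.0558, FDR 0.351). *C1ql4* was listed at 0 in all 6 libraries.

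Other desmosome genes differed from each other in direction. The desmosomal cadherins *Dsg2* and *Dsc2* had log2 fold changes of -0.44 (standard error 0.125, FDR 0.384) and -0.82 (standard error 0.270, FDR 0.417), and *Dsc2* was at 0.581 to 1.52 CPM in all. *Pkp2*, a plakophilin, had 0.31 (standard error 0.109, FDR 0.429). In these 3 genes the groups did not overlap, where 18.2% of all tested genes did not. *Jup* and *Pkp4* had 0.04 and 0.09.

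Of 10 other genes of tryptophan and kynurenine metabolism, 5 were expressed highly enough to be tested, with log2 fold changes from -0.36 to 0.05. The 5 that were not, *Ido1*, *Kmo*, *Kynu*, *Aadat* and *Haao*, had at most 0.254 CPM. Of those tested, *Kyat1* had a vehicle mean of 10.3 CPM, *Kyat3* 4.35 CPM and *Afmid* 1.93 CPM. Among other TRPC channel genes, *Trpc1* had a log2 fold change of 0.07 and *Trpc4* -0.07. The other polo-like kinase genes ranged from -0.21 for *Plk4* to 0.33 for *Plk1*. Among the RFX genes, *Rfx5* had a mean of 29.7 ± 0.903 CPM in vehicle libraries and 25.5 ± 1.40 CPM in SP libraries (SD, n = 3), without overlap (log2 fold change -0.22, standard error 0.0677, FDR 0.404). Of the EF-hand genes, *Calb2* and *Pvalb* had -0.03 and 0.13 and the calmodulin genes 0.00 to 0.11. *Prox2* had -0.28 at 0.955 to 1.62 CPM, and *Lctl* was too low to be tested.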

How the data were processed

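Reads of stranded mRNA libraries were processed by the authors in the Nextflow RNAseq pipeline, using TrimGalore for trimming, STAR for alignment to GRCm38 and Salmon for quantification. They deposited estimated counts per gene, with no scaling for library size or gene length. The annotation release and the strand setting are not given in the sources used here. Counts were rounded, as 9.77% were not whole. R 4.3.3 with edgeR 4.0.16 tested the 17069 genes that passed filterByExpr (minimum count 10, minimum total 15), after TMM normalization, with the replicate number, called a batch in the labels, as a block. FDR is by Benjamini-Hochberg. A called gene has FDR < 0.1 and |log2FC| > 0.3, thresholds taken from the study. Standard errors come from the fold change and F statistic, and 95% intervals from the t distribution.

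Pairing was checked by correlating, over 17069 genes, how the vehicle and the SP mouse of a number departed from their groups (r = 0.0118, -0.0798 and 0.0385 for replicates 1, 2 and 3). The block was kept because the labels name a batch. DESeq2 1.42.0, limma-voom in limma 3.58.1, other normalizations, other filters, no block and leaving out each replicate number were the alternatives. SDs on the log2 scale used CPM plus 0.5. Positions and exon lengths come from GENCODE M21 on GRCm38. The members and the lists of marker and partner genes were chosen with earlier results of these data known, and no gene set was tested. The text names the members, list genes, and the 3 genes most like the members. Some list genes are not reported here.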

Additional observations from a re-analysis of the deposited data

How the results depend on the processing

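The number of called members was 0 under each of the 11 alternatives, as in the blocked edgeR fit. Over all tested genes, 5 were called. This was 2 without the replicate block, 384 with no filter on low counts, 0 with at least 10 counts in every library, 36 by DESeq2 with the replicate block, 133 by DESeq2 without it, 2 by limma-voom, and 9 to 36 when a replicate number was left out. Members at an unadjusted p under 0.05 numbered 1. They were 2 without the replicate block (11.9% of all tested genes), by DESeq2 without it (8.11%) and by limma-voom (9.99%), 4 with no filter (8.29%), and from 0 without replicate 1 (5.93%) to 6 without replicate 3 (10.2%). Of genes in the marker and partner lists, 0 were called, with 19 with no filter, 1 and 8 by DESeq2 with and without the block, and 0 to 1 when a replicate number was left out. The 1 gene was *Cux2*, a neocortical marker, in both fits with 1 call. Members whose groups did not overlap numbered 0, and 0 to 7 when a replicate number was left out, with 3 without replicate 2 and 7 without replicate 3, where 43.7% and 42.5% of all tested genes did not overlap. The median log2 fold change of the members ranged from 0.095 to 0.354. In 106 of 110 member values the sign was kept and no call changed. The others came from leaving out a replicate number, which gave -0.13 to 0.04 for *C1ql3*, -0.07 to 0.44 for *Dsp*, -0.17 to 0.08 for *Rfx3* and -0.04 to 0.12 for *Calb1*. Depth limits the members to a counting error of 1.90% to 8.61% at their lowest counts.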

Other observations

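Apart from the members themselves, the 3 genes whose pattern over the 6 libraries was most like the mean standardized pattern of the members were *Ccdc85a*, *Tmem131l* and *Naa16*. They were taken from 11979 genes with a mean of at least 5 CPM, of which 198 had a Pearson's r over 0.9 with that pattern. *Ccdc85a* (r = 0.997) had 77.9, 78.7 and 79.3 CPM in vehicle 1, 2 and 3 and 88.2, 91.1 and 71.7 CPM in SP 1, 2 and 3. *Tmem131l* (r = 0.993) had 25.6, 25.7 and 26.0 CPM and 28.2, 29.9 and 23.8 CPM. *Naa16* (r = 0.992) had 10.4, 10.6 and 10.5 CPM and 11.8, 12.1 and 10.0 CPM. In each of them SP 1 and SP 2 were above and SP 3 below every vehicle library. Their selection by likeness to the members favored that arrangement in advance. Their log2 fold changes of 0.08, 0.08 and 0.10 had FDRs of 0.770, 0.797 and 0.778 from edgeR's quasi-likelihood test. Among the members, *Prox1* was most like the mean of the other 9 (r = 0.98) and *Calb1* least (r = 0.01). All points are shared by the same 6 libraries, and these values are descriptions.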
